A study of Homo sapiens with 12 samples.

Results

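Cholesterol and fatty acid synthesis is described here through 31 genes, from the first condensation of acetyl-CoA to the desaturases, together with the proteins that sense sterols and switch these genes on. The members are every probe of the deposited non-normalized array table whose annotated symbol is 1 of these 31 genes. They came to 44 probes of 47231 and stood for 30 genes, because no probe carries the symbol FDFT1 (squalene synthase) in the annotation used here. The cells were K562, a human erythroleukemia line, either wild type or expressing AE9a, a shortened splice form of the leukemia fusion protein AML1-ETO. Each line was nucleofected with 3 µg of control siRNA or of siPRMT1, an siRNA against the arginine methyltransferase PRMT1, and RNA was taken at 24 hours. This gave 4 groups of 3 arrays: wild type control, wild type siPRMT1, AE9a control and AE9a siPRMT1. All groups were grown in RPMI medium with 10% fetal bovine serum, which supplies lipoprotein cholesterol and fatty acids. The title of the series asks about PRMT1 in transcriptional activation by AML1-ETO.

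Whether replicates were separate cultures is not stated in the labels, and p-values therefore measure only a spread between arrays that may be technical. The promoter that drives AE9a, and whether the AE9a line is 1 clone, are not given in the sources used here, so AE9a and any other difference between the lines cannot be told apart. RNA came from whole cultures, so a change in every cell and a larger change in some of the cells cannot be told apart.

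Cholesterol synthesis runs from acetyl-CoA through mevalonate to isoprenoid units, then through squalene and lanosterol to cholesterol. SCAP escorts the membrane-bound transcription factors SREBP-1 and SREBP-2, encoded by SREBF1 and SREBF2, from the endoplasmic reticulum to the Golgi, where they are cut and released when sterols are scarce. INSIG1 and INSIG2 hold SCAP back when sterols are plentiful, and INSIG1 is itself a target of SREBPs. SREBPs switch on the enzymes of the sterol pathway, and SREBP-1 also those that build, lengthen and desaturate fatty acids.

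Median raw intensity lay between 60.5 and 74.3 across arrays. With no detection p-values in the files, the 95th percentile of 437 olfactory receptor probes, 66.7 to 79.5 per array, stood in for background. Of the 44 member probes, 41 lay above it on all 12 arrays. The exceptions were an LSS probe, above it on 10 arrays, and 1 probe each of SREBF1 and ACACA, above it on none. These last 2 probes fell below the intensity filter, so 42 probes and all 30 genes with a probe were tested. Erythroid markers lay above the same level on all 12 arrays for 11 of 11 genes. Of 19 markers of other cell types, 4 did so (CD2, CD3D, CD14 and EPCAM). The summed raw intensity of the 19 markers moved with the line. It was 8718 to 9266 in wild type controls and 9232 to 9990 in wild type siPRMT1 arrays. In AE9a controls it was 4707 to 5055, and in AE9a siPRMT1 arrays 4957 to 5483. In wild type and AE9a controls EPCAM averaged 5382 and 3286, CD3D 1626 and 573.6, and COL1A2 826.6 and 68.6. Of the same types, CDH1, KRT5, KRT14, CD3E, COL3A1 and DCN lay above the level on 0 arrays. CD2 did so on 12 arrays, CD3G on 8 and COL1A1 on 7. The part of this summed intensity in the line differences below was not tested.

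PRMT1 itself checks the siRNA labels. Its probe read, in raw intensity, 793.8, 816.8 and 695.3 on the AE9a control arrays and 461.4, 467.9 and 525.8 on the AE9a siPRMT1 arrays. It was lower by a log2 difference of -0.61 ± 0.16 (SE, adjusted p = 0.0211). PRMT1 no longer passed when AE9a control 1 (0.0657), AE9a control 2 (0.0846), AE9a siPRMT1 1 (0.0739) or AE9a siPRMT1 2 (0.075) was left out. Wild type controls read 1166, 1339 and 1832 and the siPRMT1 arrays 1270, 1004 and 902.3. These groups overlapped, and the difference of -0.46 ± 0.16 did not pass (adjusted p = 0.486). Directions drawn from the wild type siPRMT1 arrays therefore rest on libraries labelled siPRMT1 without a called fall of the target. The level of PRMT1 also depended on the line. AE9a controls lay below wild type controls (log2 -0.89 ± 0.16, adjusted p = 7.77e-04), and the siPRMT1 groups differed likewise (-1.03 ± 0.16, 2.54e-04). Probes of RUNX1T1, part of which is held in AE9a, each lay above the background stand-in on at most 1 array. Whether they target that part is not known, so they do not check the AE9a label. On the second principal component wild type control 3 stood apart from controls 1 and 2, at -15.8 against 21.9 and 21.7. It lay among the wild type siPRMT1 arrays, which stood at -6.54, -0.454 and -18.0. The AE9a controls stood at 23.8, 22.8 and 23.9. AE9a siPRMT1 3 stood at -34.4, against -18.7 and -20.2 for AE9a siPRMT1 1 and 2.

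In AE9a cells under siPRMT1, 8 of the 30 genes fell, judged by the brightest probe of each gene: MVD, TM7SF2, MSMO1, INSIG1, INSIG2, SCAP, SCD and FADS1. The genes that rose were PMVK and ACACA, and the remaining 20 did not pass the test. The sizes ran from a fall of 2.10-fold for MSMO1 to a rise of 1.51-fold for PMVK. Calls are limma's moderated test on normalized log2 intensity with Benjamini-Hochberg adjusted p under 0.05 over all 28338 probes tested. Counted by probe, 9 of 42 member probes were lower and 3 higher, beside 7.39% and 6.42% of all probes tested; in either direction it was 28.6% beside 13.8%. The median log2 difference was -0.16 over the member probes and 0.01 over all probes. On the same scale, groups did not overlap for 19 member probes in the lower direction and 5 in the higher, beside 19.0% and 18.6% of all probes.

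The promoters of INSIG1, MSMO1, SCD, FADS1 and PMVK are shown as examples of members whose calls under siPRMT1 in AE9a cells held in each alternative tried. Each runs from 250 bases before to 50 bases after the start given by RefSeq on GRCh38.p14, read 5′ to 3′ on the gene's own strand. Capitals mark CCAAT, the box bound by NF-Y, or its reverse complement ATTGG. INSIG1 lies at chr7:155297628-155297927 (plus strand), MSMO1 at chr4:165327419-165327718 (plus strand), SCD at chr10:100346983-100347282 (plus strand), FADS1 at chr11:61816954-61817253 (minus strand) and PMVK at chr1:154936670-154936969 (minus strand).
INSIG1: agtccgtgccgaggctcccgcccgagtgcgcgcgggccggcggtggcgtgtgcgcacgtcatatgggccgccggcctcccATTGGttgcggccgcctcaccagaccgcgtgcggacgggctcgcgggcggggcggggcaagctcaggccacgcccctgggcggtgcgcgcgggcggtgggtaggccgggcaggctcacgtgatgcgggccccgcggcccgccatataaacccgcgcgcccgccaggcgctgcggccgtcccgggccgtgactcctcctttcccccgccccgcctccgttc
MSMO1: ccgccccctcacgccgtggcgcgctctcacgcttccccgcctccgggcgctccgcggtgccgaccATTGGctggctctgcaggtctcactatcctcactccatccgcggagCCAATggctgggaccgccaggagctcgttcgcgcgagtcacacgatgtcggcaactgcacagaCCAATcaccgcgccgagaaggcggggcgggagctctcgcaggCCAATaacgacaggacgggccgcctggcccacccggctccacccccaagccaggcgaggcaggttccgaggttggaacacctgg
SCD: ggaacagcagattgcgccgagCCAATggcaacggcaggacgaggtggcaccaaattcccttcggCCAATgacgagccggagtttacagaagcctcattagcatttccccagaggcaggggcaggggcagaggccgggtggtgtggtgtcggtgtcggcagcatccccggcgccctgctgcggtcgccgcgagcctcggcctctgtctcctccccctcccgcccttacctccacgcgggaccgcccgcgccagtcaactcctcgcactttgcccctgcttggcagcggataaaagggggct
FADS1: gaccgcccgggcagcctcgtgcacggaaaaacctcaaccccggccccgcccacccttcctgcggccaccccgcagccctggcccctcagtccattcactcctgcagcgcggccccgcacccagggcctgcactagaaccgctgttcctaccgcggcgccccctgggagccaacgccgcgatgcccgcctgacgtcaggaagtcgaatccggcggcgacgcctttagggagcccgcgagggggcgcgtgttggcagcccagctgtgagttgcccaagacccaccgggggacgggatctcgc
PMVK: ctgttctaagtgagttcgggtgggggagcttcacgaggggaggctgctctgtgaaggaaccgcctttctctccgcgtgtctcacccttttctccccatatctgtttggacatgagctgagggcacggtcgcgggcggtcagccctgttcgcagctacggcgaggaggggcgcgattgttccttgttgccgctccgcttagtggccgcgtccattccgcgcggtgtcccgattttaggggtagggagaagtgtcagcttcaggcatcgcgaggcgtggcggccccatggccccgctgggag
MSMO1 held 4 CCAAT boxes, SCD 2 and INSIG1 1, while FADS1 and PMVK held 0 in these windows.

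Promoter windows matched 27 of the 30 measured genes, through 37 windows. CCAAT, sought on both strands, was in 24 of the 37 windows (64.9%), beside 34.6% of all 35116 windows of the table. GGGCGG, the GC box bound by SP1, was in 33 (89.2%, beside 45.0%). CACGTG, the E-box, was in 5 (13.5%, beside 7.26%). TCACNCCAC, a spelling of the sterol regulatory element, was in 1 (2.7%, beside 1.13%), that of SREBF2. The motifs were counted separately, and matches of different motifs may share bases. Among the 8 genes that fell under siPRMT1 in AE9a cells, 5 held a CCAAT box (INSIG1, MSMO1, MVD, SCD and TM7SF2). Of the 17 matched genes without a call, 14 did. All 8 that fell held a GC box, as did 16 of these 17. The motif content of these windows is a description of letters and was not tested.

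**Figure D1:**
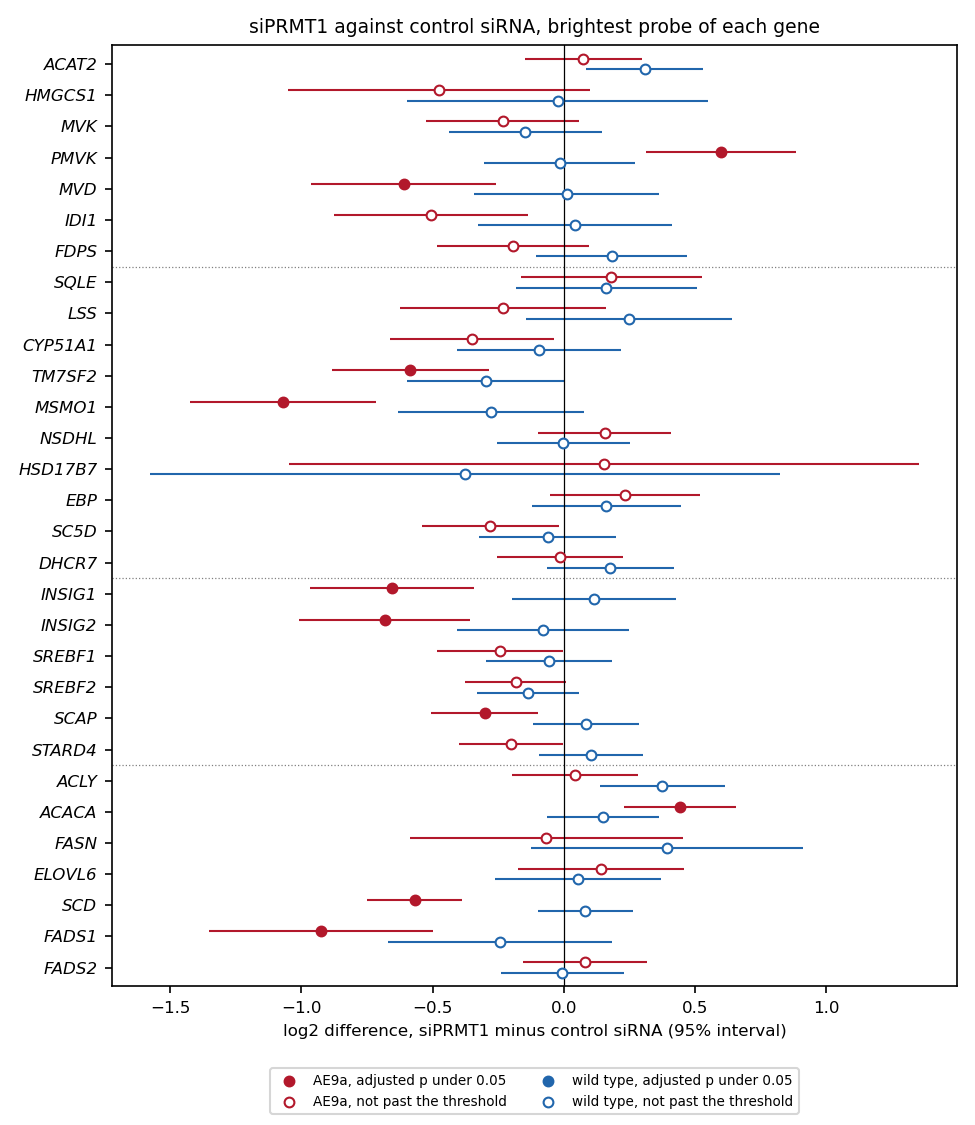
Log2 difference of siPRMT1 minus control siRNA for the brightest probe of each of 30 genes, in AE9a cells and in wild type cells, ordered by role. Points are fitted differences, bars are 95% intervals, and filled points passed the test; 10 genes passed in AE9a cells and 0 in wild type cells.

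Among the 7 mevalonate genes, PMVK rose and MVD fell in AE9a cells under siPRMT1. PMVK, phosphomevalonate kinase, read 196.8, 177.6 and 190.5 on the AE9a control arrays and 303.4, 254.7 and 270.9 on the AE9a siPRMT1 arrays. The groups did not overlap, and the log2 difference was 0.60 ± 0.13 (95% interval 0.31 to 0.89, 1.51-fold, adjusted p = 0.00904). MVD, which decarboxylates mevalonate diphosphate, read 606.6, 705.3 and 599.7 under control siRNA and 449.4, 364.7 and 381.6 under siPRMT1. Every siPRMT1 array lay below every control, a fall of 1.53-fold (log2 -0.61 ± 0.16, adjusted p = 0.0237). MVD no longer passed when AE9a control 2 (0.104), AE9a control 3 (0.0666), AE9a siPRMT1 2 (0.095) or AE9a siPRMT1 3 (0.0771) was left out. PMVK and MVD act one after the other in the pathway and were called in opposite directions.

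The other mevalonate genes did not pass in this comparison. HMGCS1, the cytosolic HMG-CoA synthase, read 2114, 1984 and 1906 in AE9a controls and 1376, 1499 and 1426 with siPRMT1. These groups did not overlap, but wild type arrays of HMGCS1 spread from 1590 to 3425 and entered the shared estimate of error, and the difference of -0.48 ± 0.27 had an adjusted p of 0.29. It was called at 0.00311 when only the AE9a arrays were used and at 0.0366 with the wild type arrays paired by replicate number. IDI1, the isopentenyl diphosphate isomerase, read 1142, 1393 and 1158 against 973.3, 895.2 and 695.3. Its groups did not overlap either, with a difference of -0.51 ± 0.17 (adjusted p = 0.0672, or 0.0443 with wild type arrays paired). IDI1 also passed without wild type control 3 (0.0472) or wild type siPRMT1 1 (0.0327), with array weights (0.0114) and with only the AE9a arrays (0.0114). MVK (-0.23), FDPS (-0.20) and the brighter ACAT2 probe (0.07) had adjusted p-values of 0.311, 0.411 and 0.739.

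TM7SF2 and MSMO1 fell among the 10 measured genes of the squalene and sterol steps, and none rose. MSMO1, the sterol C4-methyl oxidase, had the largest fall of any member's brightest probe in AE9a cells. Its brightest probe read 1406, 1386 and 1371 in the AE9a controls and 707.0, 659.7 and 570.3 in the AE9a siPRMT1 arrays. Group means were 1388 ± 17.7 (SD, n = 3) and 645.7 ± 69.4, and the log2 difference was -1.07 ± 0.17 (adjusted p = 0.00109). A further MSMO1 probe fell by the same order, from 338.0, 396.3 and 355.1 to 201.9, 152.3 and 113.8 (-1.12 ± 0.24, adjusted p = 0.00683). The dimmest MSMO1 probe did not follow, with a difference of -0.00 ± 0.12 (adjusted p = 0.992), so the 3 probes of this gene disagreed.

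TM7SF2, a sterol C14 reductase, read 426.0, 459.0 and 423.8 in AE9a controls and 281.9, 276.1 and 267.7 with siPRMT1. It fell 1.5-fold (log2 -0.58 ± 0.14, adjusted p = 0.0131), and no longer passed with AE9a control 2 left out (0.0583). CYP51A1, lanosterol 14-demethylase, read 1058, 1154 and 1135 against 762.7, 835.1 and 977.6. SC5D, sterol C5 desaturase, read 632.6, 572.4 and 565.3 against 418.0, 483.7 and 487.4. Neither pair of groups overlapped, yet the differences of -0.35 ± 0.15 (adjusted p = 0.135) and -0.28 ± 0.12 (0.155) did not pass. With array weights CYP51A1 did pass (0.0153).

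The remaining genes of the squalene and sterol steps showed no call with siPRMT1 either. The differences in AE9a cells were 0.15 for NSDHL, 0.23 ± 0.13 for EBP and -0.02 for DHCR7, whose 95% interval ran from -0.26 to 0.23. SQLE, squalene epoxidase, had 0.18 ± 0.16 and LSS, lanosterol synthase, -0.23, each for its brightest probe. HSD17B7, a keto-reductase of the sterol C4 demethylation, had a wide 95% interval of -1.05 to 1.35 around 0.15. Its raw values ranged from 2034 to 8785 within the wild type controls and from 2365 to 5414 within the AE9a siPRMT1 arrays. Its within-group SD of 0.89 on the log2 scale was the largest of the tested members, whose median was 0.16.

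INSIG1, INSIG2 and SCAP, which sense sterols and hold or escort SREBPs, fell in AE9a cells under siPRMT1. All 8 tested probes of INSIG1, INSIG2, SREBF1, SREBF2, SCAP and STARD4 lay lower with siPRMT1 than in controls without overlap on the normalized log2 scale; the dimmer INSIG1 probe overlapped narrowly in raw intensity (509.8 on AE9a siPRMT1 1 against 509.1 on AE9a control 3). Of all probes, 19.0% did not overlap in this direction. INSIG1 read 7030, 7017 and 7276 in AE9a controls and 5596, 4994 and 3592 in AE9a siPRMT1 arrays, a fall of 1.57-fold (log2 -0.65 ± 0.15, adjusted p = 0.00877). Its dimmer probe, at -0.55 ± 0.26, did not pass (adjusted p = 0.196). INSIG2 read 428.8, 350.2 and 362.1 against 187.0, 249.4 and 230.7, a fall of 1.61-fold (-0.68 ± 0.15, adjusted p = 0.00896).

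SCAP read 2838, 2833 and 2718 in AE9a controls and 2437, 2205 and 2235 with siPRMT1. The fall was small at 1.23-fold (-0.30 ± 0.09, adjusted p = 0.0468) and close to the threshold. It was lost without any 1 of the AE9a controls (0.117, 0.137 and 0.13), of the AE9a siPRMT1 arrays (0.0811, 0.149 and 0.117) or of the wild type siPRMT1 arrays (0.0536, 0.0598 and 0.0564), with a replicate block (0.0559), with median scaling (0.108) and with no filter (0.133). The transcription factor genes did not pass, with -0.24 ± 0.11 (adjusted p = 0.18) for the brighter SREBF1 probe, -0.23 for the dimmer one and -0.18 ± 0.09 (0.213) for SREBF2. STARD4, a carrier of sterols between membranes, had -0.20 ± 0.09 (0.176). With array weights the brighter SREBF1 probe (0.0318) and STARD4 (0.0443) passed. SREBF2 and STARD4 read at most 110.1 and 119.8 on any array, close to the background stand-in.

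Fatty acid genes moved in both directions in AE9a cells under siPRMT1. SCD, the stearoyl-CoA desaturase that makes oleate, read 17008, 16252 and 16102 in AE9a controls and 11128, 11648 and 10796 with siPRMT1. Spread within these groups was small, at 486 and 429 (SD, n = 3) around means of 16454 and 11191. The fall was 1.48-fold (-0.57 ± 0.08, adjusted p = 8.65e-04). FADS1, the delta-5 desaturase of polyunsaturated fatty acids, read 3815, 4188 and 4236 against 2419, 2205 and 1864, a fall of 1.90-fold (-0.93 ± 0.20, adjusted p = 0.00732).

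ACACA, acetyl-CoA carboxylase 1, which makes the malonyl-CoA for fatty acid synthesis, rose. Its brightest probe read 1082, 1012 and 994.4 in AE9a controls and 1438, 1428 and 1308 with siPRMT1, a rise of 1.36-fold (0.44 ± 0.10, adjusted p = 0.00941). A further ACACA probe rose from 1009, 981.7 and 1026 to 1336, 1313 and 1238 (0.37 ± 0.11, adjusted p = 0.0332). This second call was lost without any 1 of the 6 AE9a arrays (0.0704 to 0.127) and with no filter (0.0887). The neighbouring steps did not pass, with 0.04 for ACLY, which supplies cytosolic acetyl-CoA, -0.07 for FASN, the fatty acid synthase, 0.14 for ELOVL6, an elongase, and 0.08 for FADS2, the delta-6 desaturase.

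**Figure D2:**
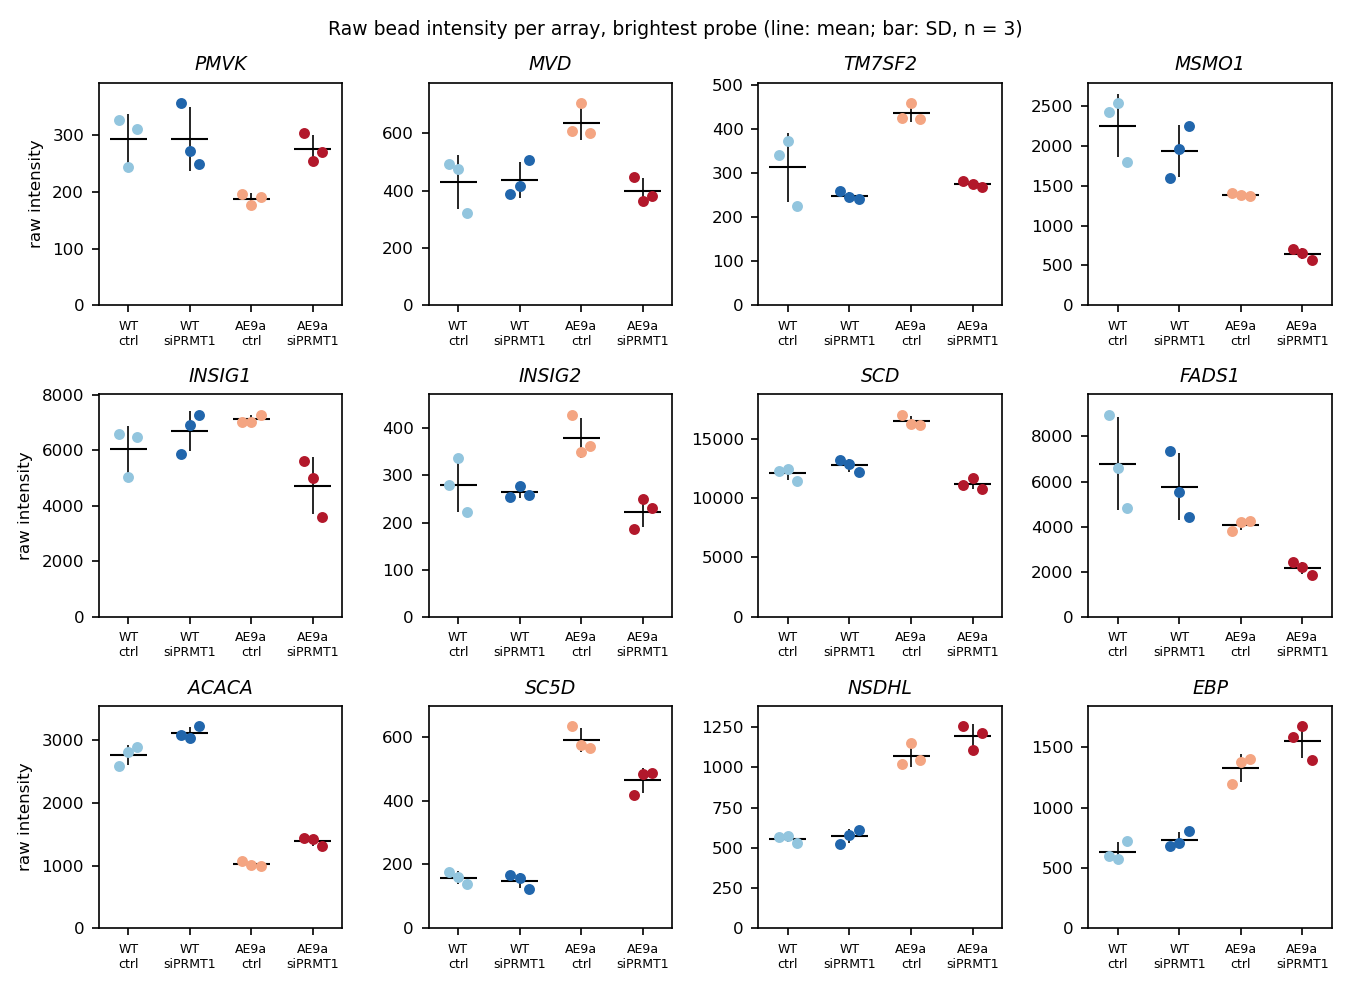
Raw intensity on each of the 12 arrays for the brightest probe of 12 genes, by group; the line is the group mean and the bar the SD (n = 3). MSMO1, INSIG1, INSIG2, SCD and FADS1 lie lower on the AE9a siPRMT1 arrays than on the AE9a controls and PMVK and ACACA higher, while SC5D, NSDHL and EBP mainly separate the lines.

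In wild type cells no member passed the test under siPRMT1, and neither did any probe of the array (0.00% of 28338). Without wild type control 3 some probes passed, TM7SF2 among them. At an unadjusted p under 0.05 there were 2 member probes of 42 and 2471 of all probes. The smallest adjusted p among members was 0.451, for ACLY. ACLY read 2761, 3024 and 2606 in controls and 4092, 3473 and 3605 with siPRMT1, without overlap, at 0.38 ± 0.11. ACAT2, which joins acetyl-CoA units, was the other member whose groups did not overlap on the normalized log2 scale, at raw values of 3627, 3073 and 3812 against 4396, 4234 and 4730 (0.31 ± 0.10, adjusted p = 0.485). That was its brighter probe, and the dimmer one went the other way, with overlapping groups and means of 7.69 against 7.48 on the same log2 scale. On that scale 2 member probes thus did not overlap upward and 0 downward, beside 4.84% and 4.91% of all probes.

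The 10 genes called in AE9a cells did not pass in wild type cells. MSMO1 read 2425, 2532 and 1800 in wild type controls and 1600, 1961 and 2251 with siPRMT1 (-0.28 ± 0.17, adjusted p = 0.652). FADS1 read 8963, 6578 and 4832 against 7351, 5544 and 4419 (-0.24 ± 0.20, adjusted p = 0.758). Its groups overlapped, although each siPRMT1 array lay below the control of the same number, by log2 -0.29, -0.23 and -0.21. INSIG1, at 6572, 5041 and 6470 against 5876, 6908 and 7256, and SCD, at 12305, 12466 and 11415 against 13206, 12836 and 12188, had differences of 0.11 and 0.08. PMVK, MVD and INSIG2 had -0.02, 0.01 and -0.08. TM7SF2 read 340.7, 373.9 and 225.8 against 258.5, 245.6 and 241.7 (-0.30 ± 0.14, adjusted p = 0.575), and without wild type control 3 it was called lower (-0.48, adjusted p = 0.0276). ACACA lay higher in each same-numbered pair, by 0.16, 0.14 and 0.14, the direction of its rise in AE9a cells (0.15 ± 0.10, adjusted p = 0.693). SCAP also lay higher in each pair, by 0.11, 0.02 and 0.13, opposite to its fall in AE9a cells (0.09 ± 0.09, adjusted p = 0.825).

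Replicate numbers were taken to pair the wild type arrays, a choice made from these data, so differences within pairs are also given. For 11 of the 30 brightest member probes all 3 pairs lay above 0 (36.7%, beside 16.2% of all probes tested), and for FADS1 alone all 3 lay below 0 (3.33%, beside 14.9%). ACAT2 was among the 11, although its dimmer probe lay below 0 in all 3 pairs (-0.24, -0.17 and -0.22). Among the fatty acid genes 5 of 7 lay above 0 in every pair. A fit with wild type pairs as a block called no member in wild type cells.

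The test of the difference between the lines asks whether siPRMT1 acted unequally in them, and SCD alone passed among the members. The SCD effect was lower in AE9a cells by log2 -0.65 ± 0.12 (95% interval -0.91 to -0.39, 1.57-fold, adjusted p = 0.0218). Called lower were 1 of 42 member probes and 0.618% of all probes; called higher were 0 members and 0.300%, which makes 0.917% in either direction. SCD no longer passed when wild type siPRMT1 2 (0.0737), any 1 AE9a control (0.07, 0.0779 and 0.0698 for numbers 1, 2 and 3) or AE9a siPRMT1 1 (0.0595) was left out. With wild type arrays paired, its adjusted p was 0.00658, and INSIG1 (0.0398), PMVK (0.0414) and FADS1 (0.0135) passed as well, 4 members in all. Without that pairing these had differences of -0.77 ± 0.21 (adjusted p = 0.103), 0.62 ± 0.19 (0.163) and -0.68 ± 0.28 (0.311). With array weights INSIG1 passed too (0.0475). MSMO1 had -0.79 ± 0.23 (0.146), MVD -0.62 ± 0.23 (0.26), INSIG2 -0.60 (0.231) and ACACA 0.29 ± 0.14 (0.398). For these genes a call in AE9a cells and none in wild type cells is not a shown difference between the lines.

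**Figure D3:**
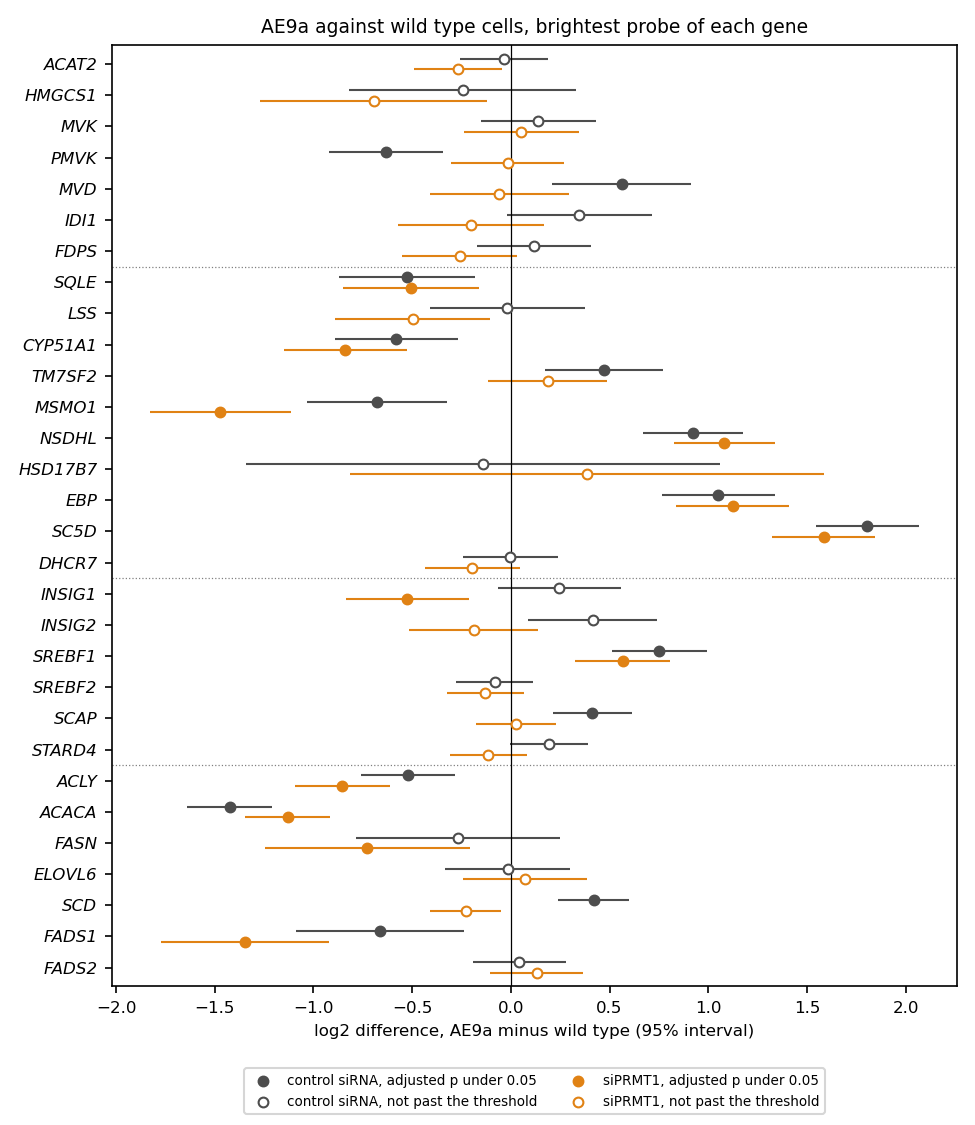
Log2 difference of AE9a minus wild type cells for the brightest probe of each of 30 genes, under control siRNA and under siPRMT1, ordered by role. Points are fitted differences, bars are 95% intervals, and filled points passed the test; SC5D, EBP and NSDHL lie highest and ACACA lowest under control siRNA, and MSMO1 and FADS1 are among the lowest under siPRMT1.

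Between the lines under control siRNA, 8 genes were higher and 7 lower in AE9a cells by their brightest probe. By probe, 9 of 42 were higher and 11 lower, beside 13.2% and 13.4% of all probes. Under siPRMT1, 4 genes were higher and 8 lower, and 5 and 13 probes, beside 11.9% and 12.8%. Each of these comparisons shares arrays with the siPRMT1 comparisons: the AE9a controls, for example, enter both with opposite sign. Values of the comparisons are therefore given side by side. In either direction 47.6% of the 42 member probes were called under control siRNA and 42.9% under siPRMT1, beside 26.7% and 24.7% of all probes. Groups did not overlap for 12 member probes upward and 13 downward under control siRNA (18.7% and 20.2% of all probes), and for 6 and 18 under siPRMT1 (18.3% and 20.5%). The median over member probes was -0.03 under control siRNA and -0.19 under siPRMT1.

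The late sterol steps SC5D, EBP and NSDHL stood higher in AE9a cells under both siRNAs. SC5D read 177.2, 160.3 and 138.8 in wild type controls and 632.6, 572.4 and 565.3 in AE9a controls, 3.49-fold higher (1.80 ± 0.12, adjusted p = 6.93e-08). Under siPRMT1 its difference was 1.59 ± 0.12 (adjusted p = 3.08e-07). EBP, the sterol isomerase, read 601.6, 576.2 and 724.2 against 1191, 1374 and 1406 (1.05 ± 0.13, 2.07-fold, adjusted p = 3.98e-05). NSDHL, the sterol C4 decarboxylase that acts after MSMO1, read 566.0, 573.5 and 531.2 against 1019, 1154 and 1049 (0.92 ± 0.12, 1.90-fold, adjusted p = 4.37e-05). Under siPRMT1 EBP and NSDHL were 2.18-fold and 2.12-fold higher, and no wild type array of these 3 genes reached any AE9a array.

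MSMO1, CYP51A1 and SQLE went the other way. The AE9a minus wild type difference of MSMO1 was -0.68 ± 0.17 with control siRNA (adjusted p = 0.00694) and -1.47 ± 0.17 with siPRMT1 (2.77-fold, adjusted p = 1.5e-05). For the middle MSMO1 probe the values were -0.49 (0.151) and -1.26 ± 0.24 (0.00123); the former passed without wild type control 3 (-0.73, 0.0295) and with array weights (0.0465). CYP51A1 read 1772, 1784 and 1433 in wild type controls against 1058, 1154 and 1135 in AE9a controls (-0.58 ± 0.15, adjusted p = 0.00813), and -0.84 ± 0.15 under siPRMT1 (6.53e-04). Neighbouring enzymes of the late sterol pathway were thus called in opposite directions between the lines.

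SQLE read 8434, 5643 and 4991 in wild type controls and 4196, 4153 and 4394 in AE9a controls. The difference of -0.52 ± 0.16 (adjusted p = 0.0254) failed to pass with wild type control 1 (0.104) or any 1 AE9a control (0.0757, 0.0766 and 0.0503) left out, in the submitters' processed values (0.0559) and with only the arrays compared (0.0533). Under siPRMT1 it was -0.51 ± 0.16 (0.0325), which failed with wild type siPRMT1 1 (0.136), wild type siPRMT1 2 (0.0757) or any 1 AE9a siPRMT1 array (0.0995, 0.0923 and 0.0505) left out and in the submitters' values (0.0878). The dimmer SQLE probe had -0.51 ± 0.18 (0.0485) under control siRNA, lost in 15 alternatives, with the largest p of 0.205 without wild type control 1. Under siPRMT1 it had -0.70 ± 0.18 (0.00992), lost without AE9a siPRMT1 3 (0.0515). TM7SF2 was higher in AE9a controls by 0.47 ± 0.14 (0.0215), which failed to pass with wild type control 3 (0.0559), AE9a control 2 (0.0783) or AE9a control 3 (0.0627) left out and with only the arrays compared (0.0779). Under siPRMT1 it did not pass (0.19, adjusted p = 0.401). LSS had -0.50 ± 0.18 under siPRMT1 (0.0625, or 0.00113 with wild type arrays paired). It also passed without wild type control 1 (0.0306), wild type control 3 (0.0425) or wild type siPRMT1 3 (-0.68, 0.0144). Median scaling (0.0474), array weights (0.0249) and a replicate block in both lines (0.0169) gave the LSS call as well.

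PMVK and MVD were called between the lines under control siRNA, in opposite directions, and neither was called under siPRMT1. PMVK read 326.4, 243.7 and 310.0 in wild type controls, above every AE9a control (-0.63 ± 0.13, adjusted p = 0.00265), and under siPRMT1 its difference was -0.02 (95% interval -0.30 to 0.27). MVD read 492.1, 475.9 and 321.7 in wild type controls, below every AE9a control (0.56 ± 0.16, adjusted p = 0.0201). MVD missed the threshold here when wild type control 3 (0.0708) or AE9a control 2 (0.0862) was left out, and under siPRMT1 the MVD difference was -0.06 (0.85). The dimmer ACAT2 probe was called lower in AE9a controls (-0.34 ± 0.12, adjusted p = 0.0495) but lost this in 15 alternatives, up to 0.195 with median scaling, and the largest without 1 array was 0.164 without AE9a control 2. The brighter ACAT2 probe, at -0.04, did not follow it (adjusted p = 0.856), and under siPRMT1 had -0.27 ± 0.10 (0.0767, or 0.0417 with wild type arrays paired). With no intensity trend the brighter probe also passed under siPRMT1 (0.0341).

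HMGCS1 differed between the lines under siPRMT1 by -0.70 ± 0.27, which did not pass (adjusted p = 0.0758). With wild type arrays paired it was called lower in AE9a cells (0.00261), as it was with a block in both lines (0.0313), array weights (0.0169) and median scaling (0.0426). It also passed without wild type control 2 (0.0485) or wild type siPRMT1 1 (-1.04, 0.00429). The wild type siPRMT1 arrays of HMGCS1 read 1590, 3425 and 2588, each above the AE9a siPRMT1 arrays in raw intensity. On the normalized log2 scale the groups overlapped, with wild type siPRMT1 1 at 10.52 and AE9a siPRMT1 2 and 3 at 10.57 and 10.56.

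Among the regulators, SREBF1 and SCAP stood higher in AE9a controls. SREBF1 read 510.5, 541.4 and 551.7 in wild type controls and 867.2, 969.7 and 919.4 in AE9a controls, 1.68-fold higher (0.75 ± 0.11, adjusted p = 1.65e-04). Its dimmer tested probe had 0.69 ± 0.14 (0.0017). Under siPRMT1 the 2 probes had 0.57 ± 0.11 (0.00174) and 0.53 ± 0.14 (0.0102). SCAP, at 2058, 2227 and 2058 in wild type controls, was 0.41 ± 0.09 higher in AE9a controls (0.00448) and differed by 0.03 under siPRMT1 (0.892). INSIG2 had 0.42 ± 0.15 in controls (0.059, or 0.0236 with wild type arrays paired), and passed without wild type control 2 (0.0195) or AE9a siPRMT1 1 (0.0463). Median scaling (0.0207) and a filter on the background stand-in (0.0496) gave the INSIG2 call as well.

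INSIG1 did not pass between the control groups (0.25, adjusted p = 0.256) and was lower in AE9a cells under siPRMT1 (-0.52 ± 0.15, 0.016). Leaving out wild type siPRMT1 2 (0.0688), wild type siPRMT1 3 (0.0584) or AE9a siPRMT1 3 (0.083) ended the second call. The dimmer INSIG1 probe was also called lower under siPRMT1 (-0.80 ± 0.26, 0.0381), with overlapping groups. Leaving out wild type siPRMT1 2 (0.181), wild type siPRMT1 3 (0.0593), AE9a control 2 (0.0514), AE9a siPRMT1 2 (0.0532) or AE9a siPRMT1 3 (0.184) ended it. So did using only the arrays compared (0.0669) or no intensity trend (0.0523).

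ACACA had the largest line difference among the fatty acid genes under control siRNA, and FADS1 under siPRMT1. ACACA read 2582, 2808 and 2899 in wild type controls against 1082, 1012 and 994.4 in AE9a controls, 2.69-fold lower (-1.42 ± 0.10, adjusted p = 1.03e-07). Under siPRMT1 it was 2.19-fold lower (-1.13 ± 0.10, adjusted p = 1.31e-06), and its further probe had -1.38 and -1.21. ACLY read 2761, 3024 and 2606 in wild type controls against 1908, 2055 and 1884 in AE9a controls (-0.52 ± 0.11, 0.0029), and -0.85 ± 0.11 under siPRMT1 (5.95e-05). Its dimmer probe had -0.81 ± 0.14 under siPRMT1 (5.22e-04) and -0.44 ± 0.14 in controls (0.0255). The latter failed with wild type control 1 (0.0792), AE9a control 2 (0.0588) or AE9a control 3 (0.113) left out, with median scaling (0.09) and with no filter (0.0514).

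The desaturases differed from each other between the control groups. SCD stood higher in AE9a controls than in wild type controls, by 0.42 ± 0.08 (adjusted p = 0.00183), and under siPRMT1 had -0.23 ± 0.08 (0.0624, or 0.0396 with wild type arrays paired). Under siPRMT1 SCD also passed with array weights (0.0376), no intensity trend (0.0316) and a filter on the background stand-in (0.0438). FADS1 was lower by -0.66 ± 0.20 in controls (0.0232), which missed the threshold when wild type control 1 (0.1), wild type control 2 (0.0622), AE9a control 1 (0.0827) or AE9a control 2 (0.0571) was left out. Under siPRMT1 FADS1 was 2.54-fold lower (-1.35 ± 0.20, adjusted p = 1.77e-04). FASN spread widely, from 7157 to 15181 within the wild type controls, and did not pass there (-0.27, adjusted p = 0.486). Without wild type control 1, FASN was called lower in AE9a controls (-0.59, adjusted p = 0.0359). Under siPRMT1 FASN read 12008, 13402 and 17234 in wild type cells and 10201, 7450.5 and 8958 in AE9a cells. It was called lower in AE9a cells there (-0.73 ± 0.24, 0.0406). This was lost in 10 alternatives, among them median scaling (0.0639) and leaving out wild type control 2 (0.051), wild type siPRMT1 2 (0.084), wild type siPRMT1 3 (0.143), AE9a control 2 (0.0511), AE9a control 3 (0.0535) or any 1 AE9a siPRMT1 array (0.0679, 0.153 and 0.0675).

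Across the 5 comparisons, 19 of the 30 genes (63.3%) were called at least once, beside 50.3% of the 13929 gene symbols tested. HMGCS1, MVK, IDI1, FDPS, LSS, HSD17B7, DHCR7, SREBF2, STARD4, ELOVL6 and FADS2, 11 genes, were called in none with any of their probes. The closest of these were LSS, IDI1 and HMGCS1, with smallest adjusted p-values of 0.0625, 0.0672 and 0.0758, and each passed in some alternatives, given with its values. STARD4 also passed in AE9a cells under siPRMT1 with array weights (0.0443). Between the lines under control siRNA it passed with median scaling (0.0328).

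**Figure D4:**
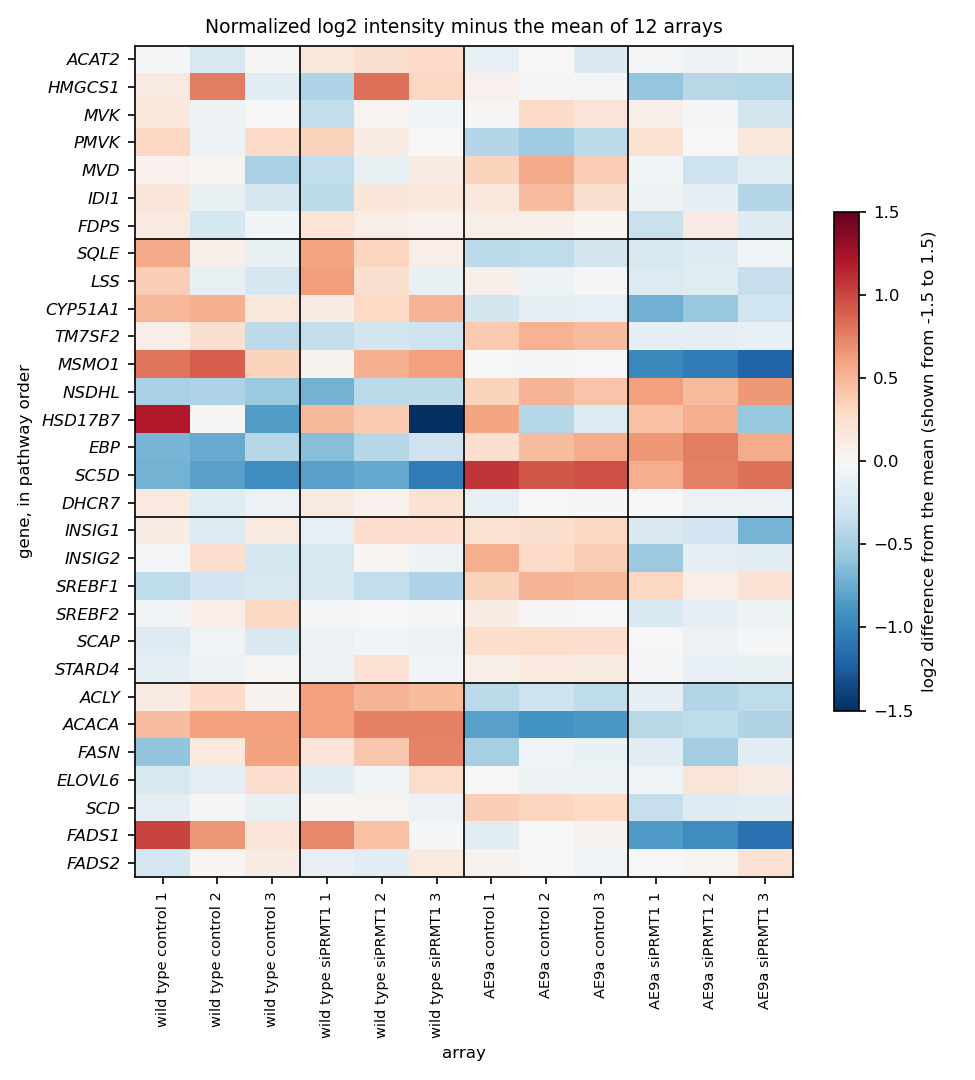
Normalized log2 intensity of the brightest probe of each of 30 genes on each of the 12 arrays, as the difference from that gene's mean over the 12 arrays, in role order. Colour is limited to ±1.5. SC5D, EBP and NSDHL separate the lines. INSIG1, INSIG2, MSMO1, FADS1 and SCD have their lowest group mean on the AE9a siPRMT1 arrays. There MSMO1 and FADS1, and by a narrow margin SCD and INSIG1, lie below every other array.

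A further 44 genes of lipid synthesis, uptake and transport that are not among the 31 were counted in the same fits. Of these, 40 had a probe and 35 were tested, through 52 probes. In AE9a cells under siPRMT1, 5 of the 52 probes rose and 7 fell, beside 6.42% and 7.39% of all probes. ACSS2, which makes acetyl-CoA from acetate, fell with -1.27 ± 0.20 (adjusted p = 0.00128) and -1.37 ± 0.22 (0.0015) in 2 of its probes. A further, dimmer ACSS2 probe did not pass (-0.27 ± 0.16, 0.331). TMEM97, a sterol-responsive membrane protein, fell in the dimmer of its 2 probes (-0.80 ± 0.12, 8.74e-04) but not in the brighter one (0.05 ± 0.11, 0.86), which stands for the gene. PDSS1, which makes the side chain of coenzyme Q, rose in both (1.04 ± 0.16, 0.0011, and 0.88, 0.00364). In wild type cells 0 of the 52 passed, and 0 passed for the difference between lines, where ACSS2 had -1.11 (0.0897).

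Between the lines, 10 of these 52 probes were higher and 11 lower in AE9a cells under control siRNA, and 7 and 15 under siPRMT1. Of all probes, 13.2% and 13.4% were called in these directions under control siRNA, and 11.9% and 12.8% under siPRMT1. ACSL1, which activates long-chain fatty acids, was higher by 2.35 ± 0.12 with control siRNA (adjusted p = 3.03e-09) and by 2.30 with siPRMT1. ELOVL7, an elongase, was called higher too, with mean raw intensities of 551.9 and 474.3 in the AE9a groups; in each wild type group only 1 of 3 arrays lay above the background stand-in (means 68.3 and 66.0), so no fold is given. NR1H3, the oxysterol receptor LXR alpha, was lower by -0.94 ± 0.11 (2.52e-05) and -0.97. These calls held without any 1 array.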

How the data were processed

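RNA of 12 K562 samples was hybridised to Illumina BeadChips. The deposited non-normalized table gives bead intensity without detection p-values. A further deposited table gives the authors' processed intensity, with a normalization not given in the sources used here. The submitters' processing notes name GenomeStudio with no version. Each column of the processed table correlated best with its own array (Spearman's rho 0.999 or higher, column medians 65.5 to 65.8), on a linear, uncentred scale; it served only as an alternative.

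Background was corrected by normexp with an offset of 50, followed by quantile normalization, using limma 3.58.1 (R 4.3.3). Probes above the 40th percentile of mean intensity were tested. A linear model gave each group 1 mean over all 12 arrays, with eBayes and an intensity trend (13.8 degrees of freedom), two-sided, adjusted by Benjamini-Hochberg within each of 5 contrasts at 0.05. Values named raw are the deposited intensities, and differences and folds come from the normalized log2 scale. The number of arrays limits precision. No array column was identical to another. The fit was also run on simulated arrays with independent normal noise. These held no deviations shared by replicate number and no outlying array, so they do not bear on either.

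Probes were named through the platform annotation: 30113 had 1 symbol, 8 several and 17110 none, and gene identifiers changed 0 member symbols. Several probes of a gene were kept apart, with the brightest standing for the gene. Members and gene lists were chosen with earlier results of these data known. Every member is accounted for. Values per array are given for each called member in at least 1 comparison. At most 3 other pathway genes per comparison were named, by smallest adjusted p.

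Replicate numbers come from the titles. Deviations of same-numbered wild type arrays from their group means correlated at 0.578, 0.283 and 0.536, and those numbers were taken to pair the arrays. In AE9a cells the correlations were -0.203, -0.296 and 0.00066, and the numbers were not taken as pairs. Between the lines, siPRMT1 arrays numbered 1, 2 and 3 correlated at 0.00328, 0.312 and 0.372, the last 2 above the lowest wild type value. The pairing was chosen from these data, and differently numbered arrays were not compared. Alternatives covered background correction, scaling, the filter, the trend, array weights, replicate blocks and each array left out. Promoters came from RefSeq (GRCh38.p14) and were scanned with Python 3.11.15.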

Additional observations from a re-analysis of the deposited data

Results flagged for a closer look

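SCD was marked because its siPRMT1 effect differed between the lines by the test of the difference itself. The effect in AE9a cells minus that in wild type cells was -0.65 ± 0.12 on the log2 scale (limma, adjusted p = 0.0218), from -0.57 in AE9a cells and 0.08 in wild type cells. Each of the 3 AE9a siPRMT1 arrays lay below the 3 AE9a controls, and in wild type cells the groups overlapped.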

How the results depend on the processing

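Over 23 alternatives, no member difference that had been called changed direction. The difference between lines had 22, because a run with only the arrays compared does not apply to it. Of 12 member probes called under siPRMT1 in AE9a cells, 8 kept the call in each alternative. The same held for 13 of 20 between the lines under control siRNA, 13 of 18 under siPRMT1, and 0 of 1 for the difference between lines. Calls over all probes in AE9a cells, 3913, became 7100 with array weights, 6093 with a wild type replicate block and 6571 with only the arrays compared. In wild type cells the block gave 14 calls in place of 0. For the difference between lines, 260 calls became 473 without the trend, 455 with array weights, 403 with a replicate block in both lines and 1240 with the wild type block, and member calls became 2 with array weights and 4 with the wild type block. With a replicate block in both lines, member calls were 11, 0, 1, 19 and 20 over the 5 comparisons, and 14, 0, 4, 21 and 22 with the wild type block, beside 12, 0, 1, 20 and 18. With each array left out, all calls and member calls ranged from 2079 to 5086 and 8 to 13 in AE9a cells, from 0 to 850 (without wild type control 3) and 0 to 1 in wild type cells, and from 80 to 348 and 0 to 1 for the difference. Between the lines they ranged from 5782 to 7664 and 13 to 19 under control siRNA, and from 5463 to 7995 and 13 to 19 under siPRMT1. The AE9a count fell to 2599, 2254 and 2214 without AE9a control 1, 2 and 3, and to 2079 without AE9a siPRMT1 3. Its member count was lowest, 8, without AE9a control 2, and that between the lines under control siRNA was lowest, 13, also without AE9a control 2. The causes were not tested. Members near the background stand-in, such as SREBF2, STARD4 and FADS2, have compressed differences.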
